A study of Mus musculus with 13 samples.

Results

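The transcripts of the mitochondrial genome were examined in the frontal cortex of 5XFAD and wild-type mice. They were taken as all genes whose symbol starts with mt-, which gave 37 of the 55536 genes in the files: 13 messenger RNA genes, 2 ribosomal RNA genes and 22 transfer RNA genes. RNA sequencing was done on 13 libraries in 4 groups: 3 libraries of 5XFAD mice at 6 months, 4 of wild-type mice at 6 months, 3 of 5XFAD mice at 11 months and 3 of wild-type mice at 11 months. 5XFAD mice, used as a model of amyloid deposition, carry human transgenes driven in neurons by regulatory sequence of mouse Thy1. The wild-type mice are labelled B6SJLF1/J and the transgenic mice 5XFAD. The labels give no further strain background, no sex and no treatment. Each title carries a number of its own, but the labels do not say that the libraries come from separate animals, and the spread behind each p-value may then be partly technical.

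The mitochondrial genome is a small circular DNA that is present in many copies in each cell and is transcribed inside the organelle. Both strands are read as long precursors that are cut at the transfer RNA genes, which lie between most of the others, into messenger, ribosomal and transfer RNAs. The messenger RNAs encode core subunits of respiratory chain complexes I, III and IV and of the ATP synthase, complex V, while all the other subunits come from nuclear genes. Neurons rely heavily on this chain for ATP.

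The members lie between bases 1 and 15422 of chromosome M in GRCm38 and cover 15365 of these bases. Transcription of the heavy strand gives 28 of them, annotated on the plus strand: 12 messenger RNA genes, both ribosomal RNA genes and 14 transfer RNA genes. Transcription of the light strand gives the other 9, annotated on the minus strand: mt-Nd6 and 8 transfer RNA genes. Complex I has 7 of the messenger RNA genes, complex III has 1, complex IV has 3 and complex V has 2. Several neighbours share bases. The 2 complex V genes overlap by 43 bases on the same strand. The counts of mt-Atp8 were whole numbers in all 13 libraries, so they show no division of reads with mt-Atp6. The whole mt-Atp8 gene (chrM:7766-7969, plus strand, GENCODE M21 annotation of GRCm38) is shown with the bases that it shares with mt-Atp6 in capitals.
mt-Atp8: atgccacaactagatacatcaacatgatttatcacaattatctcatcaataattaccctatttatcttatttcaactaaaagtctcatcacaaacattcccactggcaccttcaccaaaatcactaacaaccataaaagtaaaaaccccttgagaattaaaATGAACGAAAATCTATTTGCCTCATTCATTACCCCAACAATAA

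The only messenger RNA gene of the light strand, mt-Nd6 (chrM:13552-14070, minus strand), runs against the end of mt-Nd5 and shares 14 bases with it. Its last 50 bases (chrM:13552-13601) are shown on its own strand, with the bases that are also the end of mt-Nd5 on the other strand in capitals. The strand setting of the counting is not given in the sources used here. Without it, reads from these shared bases cannot be told apart. Reads from RNA of the other strand anywhere in mt-Nd6 may also be in its counts, which was not tested.
mt-Nd6 end: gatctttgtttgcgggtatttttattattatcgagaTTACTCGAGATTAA

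All 22 transfer RNA genes were listed at 0 in all 13 libraries. Their lengths ran from 59 bases in mt-Ts2 (chrM:11613-11671), which encodes a serine transfer RNA, to 75 bases in mt-Tl1 (chrM:2676-2750), which encodes a leucine transfer RNA. In every library the quantifier gave each of them an effective length of 0, the number of positions at which a fragment of the usual size could start. A listed 0 is therefore no measurement of these RNAs, and the strand comparison below rests on the messenger RNA genes. The shortest and the longest of the genes are printed to show the size of what was not counted.
mt-Ts2: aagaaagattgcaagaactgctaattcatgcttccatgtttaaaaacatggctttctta
mt-Tl1: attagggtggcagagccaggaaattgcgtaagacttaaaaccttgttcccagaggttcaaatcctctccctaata

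Near-identical stretches of the mitochondrial genome lie in the nuclear genome, and the files count them as genes of their own. With at least 95% identity over at least 100 bases, 11 such copies were found. Only annotated transcripts were searched, so a copy without annotation would not be found. A block of 4663 bases on the minus strand of chromosome 1 (chr1:24611535-24616197) holds 7 of them, and 5 of these 7 have no difference from the mitochondrial gene in the aligned bases. In each of the other two, 1 base differs. Positions are counted from 1 at the 5′ end of the mitochondrial gene, with its base first. Gm29216 differs from mt-Co1 by A1066T over 483 aligned bases, and Gm28438 differs from mt-Nd3 by T3C over 345 aligned bases. The windows around these positions are shown on the coding strand with the differing base in capitals (mt-Co1, chrM:6390-6408; Gm29216, chr1:24616170-24616188; mt-Nd3, chrM:9459-9476; Gm28438, chr1:24613102-24613119).
mt-Co1 window: ggaAttgttttatccaact
Gm29216 window: ggaTttgttttatccaact
mt-Nd3 window: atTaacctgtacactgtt
Gm28438 window: atCaacctgtacactgtt

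The copies of mt-Co2, mt-Atp6 and mt-Co3 have no difference over 681, 678 and 783 aligned bases. As annotated, they end before the last 3, 3 and 1 bases of the mitochondrial gene. The nuclear sequence past these annotated ends was not compared. The last 30 bases of each mitochondrial gene (chrM:7667-7696, chrM:8578-8607 and chrM:9361-9390, plus strand) are shown with the bases beyond the annotated copy in capitals.
mt-Co2 end: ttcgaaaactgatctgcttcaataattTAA
mt-Atp6 end: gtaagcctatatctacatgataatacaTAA
mt-Co3 end: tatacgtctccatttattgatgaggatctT

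These copies took most of the counts of their genes. Levels are given as CPM, counts scaled to a common library size, after TMM scaling, a correction for library composition. Exceptions without TMM scaling are the averages of single copies in this paragraph and the levels of Thy1 and of cell type markers. Over the 13 libraries Gm28437, the copy of mt-Co3, averaged 13587 CPM. Gm28661, the copy of mt-Co2, averaged 11597 CPM, and Gm10925, the copy of mt-Atp6, averaged 11044 CPM. Of the counts of gene and copy together, mt-Atp6 itself held 6.90% to 9.78% across libraries, mt-Co2 8.23% to 10.4% and mt-Nd3 9.91% to 15.8%. The share was 16.4% to 22.4% for mt-Co3, 17.3% to 23.4% for mt-Nd4l and 84.9% to 89.0% for mt-Co1. In mt-Nd4 it was at least 99.86%, and its copy Gm28439 averaged 11.0 CPM. The copies on other chromosomes averaged at most 0.572 CPM. Reads that fit both places are divided between them by the quantifier, so the level of a member with a copy on chromosome 1 depends on that division, and the results on such members that the text turns on are also given with the counts of their copies added.

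Per kilobase of gene, mt-Co1, the catalytic subunit of cytochrome c oxidase, was the highest member at 20806 ± 3197 CPM per kilobase (SD over 13 libraries). The complex III subunit mt-Cytb followed at 13774 ± 1527, then the complex I subunits mt-Nd1 at 9228 ± 1024 and mt-Nd4 at 8176 ± 1120 CPM per kilobase. The last 2 of these 4 ranges overlap, from 7480 to 10957 for mt-Nd1 and from 6348 to 10026 for mt-Nd4, while the range of mt-Co1 (15753 to 27537) overlaps that of mt-Cytb (10991 to 16000) only at its lower end. The small ribosomal subunit RNA mt-Rnr1 averaged 5052 ± 609 and the large one, mt-Rnr2, 4035 ± 635 CPM per kilobase. Between them in this order stood mt-Nd2 at 4775 ± 835 and mt-Co3 at 4042 ± 515 CPM per kilobase, and neighbours in the order of these 4 differ by less than the larger SD of the pair. Below them came mt-Nd5 and mt-Nd6, at 2984 ± 687 and 2681 ± 427 CPM per kilobase.

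Adding the copies changed the order. With them, mt-Co3 stood at 21410 ± 2518, mt-Co2 at 18663 ± 2670 and mt-Atp6 at 17749 ± 2186 CPM per kilobase, against 4042 ± 515, 1665 ± 231 and 1495 ± 238 without them. They then followed mt-Co1, at 23928 ± 3452, so that all 3 complex IV genes and mt-Atp6 stood above mt-Cytb. The complex I genes mt-Nd4l at 2330 ± 539 and mt-Nd3 at 1878 ± 284 CPM per kilobase remained among the lowest with their copies, close to mt-Nd6 at 2681 ± 427. All these values divide by annotated length. The effective length was 64.9 to 73.1 of 297 bases in mt-Nd4l and 109 to 119 of 348 in mt-Nd3. It was 275 to 286 of 519 in mt-Nd6 and 1301 to 1312 of 1545 in mt-Co1. Division by annotated length thus sets short genes too low beside long ones, and no order was made on effective length. The gene mt-Atp8, for which no annotated copy was found, averaged 1562 ± 388 CPM per kilobase. Its effective length was only 8.13 to 10.5 bases of its 204, so its deposited TPM, which divides by that length, gives no level to set beside those of longer genes.

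**Figure D1:**
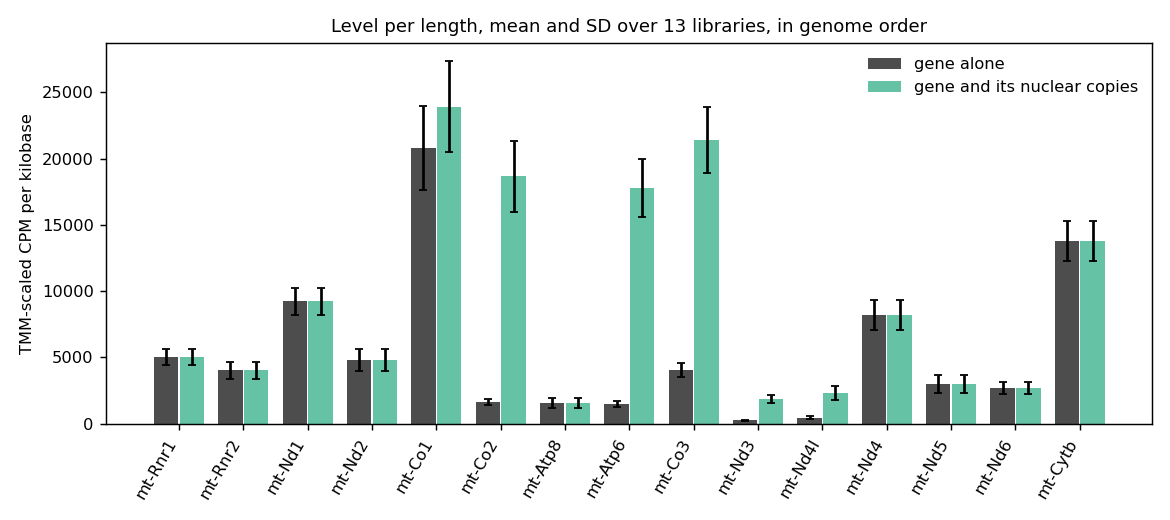
Level of the 15 counted mitochondrial genes in TMM-scaled CPM per kilobase (vertical axis) in genome order, for the gene alone (dark bars) and with the counts of its nuclear copies added (green bars); bars are means and lines SD over 13 libraries. The bars of mt-Co2, mt-Atp6 and mt-Co3 are 1665, 1495 and 4042 alone and 18663, 17749 and 21410 with the copies.

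Per kilobase, the light strand gene mt-Nd6 stood below 7 of the 12 heavy strand messenger RNA genes and above the other 5, mt-Co2, mt-Atp8, mt-Atp6, mt-Nd4l and mt-Nd3. With the copies added it stood above mt-Nd4l, mt-Nd3 and mt-Atp8. The effective lengths of these genes are a smaller part of their annotated lengths than that of mt-Nd6. Their place below mt-Nd6 therefore depends on the length used. For every 100 counts of the 12 heavy strand messenger RNA genes, mt-Nd6 had 1.68, 1.65 and 1.76 counts in the 5XFAD libraries at 6 months, against 1.59, 1.47, 1.53 and 1.65 in the wild-type libraries of that age. At 11 months it had 1.88, 1.66 and 1.75 in 5XFAD libraries, against 1.83, 1.53 and 1.48 in wild-type libraries. The 5XFAD libraries lay above the wild-type ones at 6 months by a narrow margin, and the groups overlapped at 11 months. Ribosomal RNA, for every 100 mitochondrial messenger RNA counts, came to 14.6, 12.99 and 13.2 counts in 5XFAD and 14.0, 11.8, 14.2 and 13.8 in wild type at 6 months. At 11 months it came to 11.97, 13.7 and 14.4 in 5XFAD and 14.7, 10.8 and 10.8 in wild type. These groups overlapped at both ages. The ratio of mt-Rnr2 to mt-Rnr1 counts was 1.36, 1.32 and 1.34 in 5XFAD against 1.29, 1.23, 1.22 and 1.26 in wild type at 6 months, and 1.38, 1.38 and 1.42 in 5XFAD against 1.24, 1.32 and 1.38 in wild type at 11 months. It was higher in every 5XFAD library than in every wild-type library at 6 months, and the same held at 11 months by a narrow margin. No test was made on these ratios. The library titles end in mRNAseq, and the part of RNA selection in the levels of ribosomal RNA and mt-Nd6 was not tested. With the strand setting not given, the mt-Nd6 counts may hold RNA of the other strand, which was not tested either.

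Facts of the series that bear on these values are as follows. Libraries held 23618296 to 26615776 counts, and no pair of the 78 agreed within sampling noise. Mouse Thy1, whose regulatory sequence drives the transgenes, lay at 2459 to 3067 CPM in 5XFAD libraries against 650 to 790 in wild-type libraries at 6 months, and at 2103 to 3268 CPM in 5XFAD against 536 to 666 CPM in wild type at 11 months, which separates the genotypes as labelled. All 7 neuron markers were detected, and the 4 liver markers summed to at most 1.03 CPM. The summed 6 microglia markers came to 453 to 477 CPM in 5XFAD and 249 to 257 CPM in wild type at 6 months, and to 790 to 1078 CPM in 5XFAD and 264 to 430 CPM in wild type at 11 months. The summed 5 astrocyte markers came to 899 to 1062 CPM in 5XFAD and 534 to 587 CPM in wild type at 6 months, and to 2041 to 2236 CPM in 5XFAD and 689 to 971 CPM in wild type at 11 months. No marker of either list was at 0 in all libraries. One wild-type library at 6 months, replicate 1, held choroid plexus markers at 3067 CPM, against 14.9 to 33.6 in 5XFAD libraries and 35.5 as the median of its own group. The summed 5 striatum markers came to 475 to 1499 CPM in 5XFAD and 1064 to 2605 CPM in wild type at 6 months. At 11 months they came to 248 to 634.5 CPM in 5XFAD and 240 to 2053 CPM in wild type, with a wild-type median of 408 CPM. The part of this spread in the mitochondrial values was not tested. Read from Xist and Y-linked genes, the 5XFAD libraries were 3 males at 6 months and 1 male and 2 females at 11 months. The wild-type libraries were 2 males and 2 females at 6 months and 2 males and 1 female at 11 months. In bulk tissue, fewer cells of a type and less RNA per cell cannot be told apart.

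At 6 months, the mitochondrial genes took a larger share of the counts in every 5XFAD library than in every wild-type library. The share was 9.95%, 9.99% and 9.94% in 5XFAD libraries, against 8.88%, 8.84%, 8.47% and 8.38% in wild-type libraries. With the copies added it was 14.5%, 14.5% and 14.6% in 5XFAD, against 12.8%, 12.7%, 12.3% and 12.2% in wild type. The groups were apart on both counts, but in the sum of deposited TPM values they overlapped, at 17.3% to 18.4% in 5XFAD and 15.6% to 17.5% in wild type. On counts the 5XFAD libraries lay closer together (9.96% ± 0.0300, SD, n = 3) than the wild-type ones (8.64% ± 0.254, SD, n = 4). At 11 months the share was 10.1%, 10.4% and 11.3% in 5XFAD libraries, against 7.89%, 11.4% and 10.1% in wild-type libraries. The lowest and the highest library of the whole series were both wild type at 11 months, so the groups overlapped. The lowest, replicate 1, was also the only female of that group.

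**Figure D2:**
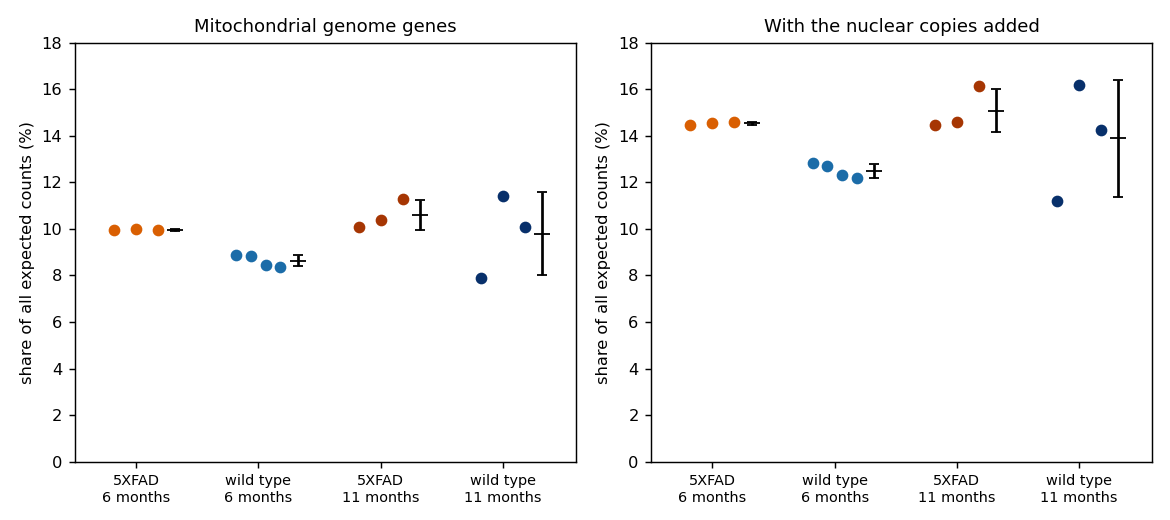
Share of all expected counts (vertical axis, percent) held by the mitochondrial genes alone (left) and with their nuclear copies (right); points are libraries, and the line and bars beside them are the mean and SD. At 6 months the 5XFAD points, 9.94% to 9.99% alone, lie above the wild-type points, 8.38% to 8.88%, while the wild-type points at 11 months span 7.89% to 11.4%.

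Of the 37 members, 15 had counts above the filter on low values and were tested: the 13 messenger and the 2 ribosomal RNA genes. Each comparison was tested over 17483 genes with edgeR's quasi-likelihood test and Benjamini-Hochberg adjustment, at an adjusted p under 0.05. For 5XFAD against wild type at 6 months no member passed, while 1.32% of all genes tested did, 1.3% higher and 0.0172% lower in 5XFAD. At an unadjusted p under 0.05 there were 7 members, all higher in 5XFAD, against 5.61% of all genes. DESeq2 called 3 members and 2.2% of all genes. Limma on log2(TPM + 1) called 0 members, with 3 at an unadjusted p under 0.05, and 0.995% of all genes. All 15 members had a positive log2 fold change, from 0.19 to 0.72 with a median of 0.32, where the median over all genes was -0.01 and 48.3% of all genes were positive. In 14 of the 15 every 5XFAD library lay above every wild-type library, a pattern shown by 6.97% of all genes tested, with 5.06% lower without overlap. The exception was mt-Nd3, and with the copies added it did not overlap either. Mitochondrial genes are cut from shared precursors, so these counts over members are not counts of independent events.

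Among the complex I genes, mt-Nd4l had the largest difference. It encodes a small membrane subunit and lies just ahead of mt-Nd4 in the same messenger RNA. Its level was 181, 137 and 158 CPM in 5XFAD libraries, against 107, 100, 82.9 and 95.1 CPM in wild-type libraries. The lowest 5XFAD library was above the highest wild-type one. On the log2 scale the difference was 0.72 ± 0.18 (SE), with an adjusted p of 0.0794 by edgeR. Its copy held most of the counts, and with the copy added the log2 fold change was 0.50 ± 0.19 with an adjusted p of 0.427 by edgeR.

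The light strand gene mt-Nd6 encodes a membrane subunit of complex I, and no annotated nuclear copy of it was found. It had 1472, 1455 and 1544 CPM in 5XFAD libraries, against 1178, 1138, 1096 and 1180 CPM in wild-type libraries. The groups were well apart, and each varied little within itself. The log2 fold change was 0.38 ± 0.10, with a 95% interval of 0.17 to 0.59 and an adjusted p of 0.101 by edgeR. The membrane subunit mt-Nd3 had 120, 89.8 and 114 CPM in 5XFAD, against 97.4, 73.0, 68.5 and 54.2 CPM in wild type. Here the lowest 5XFAD library was below the highest wild-type one, and the log2 fold change was 0.56 ± 0.20 (adjusted p of 0.355 by edgeR), or 0.35 ± 0.13 with the copy added (0.369).

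The longer complex I genes had smaller differences. The gene mt-Nd1 had 9665, 9007 and 9271 CPM in 5XFAD and 7950, 8292, 7682 and 7816 CPM in wild type. For mt-Nd2 the values were 5410, 4937 and 5007 CPM in 5XFAD and 4292, 4448, 3862 and 3697 CPM in wild type. All 3 values of 5XFAD exceeded all 4 of wild type in both genes. The subunit mt-Nd1 lines the quinone channel, and mt-Nd2 is one of the antiporter-like subunits of the proton-pumping arm, together with mt-Nd4 and mt-Nd5. The values of mt-Nd4 were 11977, 11387 and 11531 CPM in 5XFAD and 10172, 10298, 9712 and 9118 CPM in wild type. Those of mt-Nd5 were 5129, 5568 and 5445 CPM in 5XFAD and 4592, 4486, 3997 and 4103 CPM in wild type. Here too the groups did not overlap. The log2 fold changes of these 4 genes were 0.23 ± 0.11, 0.33 ± 0.14, 0.24 ± 0.12 and 0.33 ± 0.16 in the order named, with adjusted p from 0.482 to 0.591 by edgeR.

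In complex III, mt-Cytb, the subunit that holds both quinone sites, had 17010, 16347 and 16870 CPM in 5XFAD libraries, against 14874, 14396, 13938 and 13512 CPM in wild-type libraries. Its log2 fold change was 0.24 ± 0.11, with an adjusted p of 0.534 by edgeR. In complex IV, mt-Co1 had 31826, 34330 and 33312 CPM in 5XFAD, against 26851, 30347, 27040 and 28393 CPM in wild type, and a log2 fold change of 0.24 ± 0.15, or 0.24 ± 0.14 with the copies added. These groups did not overlap either, but in mt-Co1 the spread within each was wider. The other catalytic-core gene, mt-Co2, which carries the first copper site on the electron path, had 1256, 1110 and 1156 CPM in 5XFAD and 1103, 1006, 1054 and 935 CPM in wild type. The structural subunit mt-Co3 had 3225, 3629 and 3327 CPM in 5XFAD and 3143, 2776, 3072 and 2870 CPM in wild type. Both gaps between groups were small, and the log2 fold changes were 0.20 ± 0.12 and 0.19 ± 0.14. With the copies added they were 0.30 ± 0.13 and 0.29 ± 0.12, with adjusted p of 0.506 and 0.465 by edgeR.

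In complex V, mt-Atp6, the subunit of the proton channel, had 1271, 1166 and 1295 CPM in 5XFAD libraries, against 900, 905, 976 and 840 CPM in wild-type libraries. The gap between the groups was larger than the range within either. This made a log2 fold change of 0.46 ± 0.12, with a 95% interval of 0.21 to 0.71 and an adjusted p of 0.0885 by edgeR. With the copy, which holds most of the counts, the levels were 13161, 12947 and 13243 CPM in 5XFAD and 10780, 10964, 10915 and 10692 CPM in wild type, and the log2 fold change was 0.28 ± 0.11 with an adjusted p of 0.480 by edgeR. Its overlapping neighbour mt-Atp8, a small accessory subunit, had 293, 394 and 322 CPM in 5XFAD and 222, 274, 253 and 259 CPM in wild type. The 5XFAD libraries differed widely among themselves, and the log2 fold change was 0.42 ± 0.23 (adjusted p of 0.642 by edgeR).

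Both ribosomal RNAs followed the same order. The large subunit RNA mt-Rnr2 had 7484, 6616 and 6768 CPM in 5XFAD libraries, against 5955, 5100, 5682 and 5624 CPM in wild-type libraries. The small subunit RNA mt-Rnr1 had 5519, 5022 and 5034 CPM in 5XFAD, against 4622, 4136, 4647 and 4448 CPM in wild type. The groups did not overlap in either gene, and the log2 fold changes were 0.32 ± 0.11 for mt-Rnr2 and 0.22 ± 0.11 for mt-Rnr1, with adjusted p of 0.356 and 0.578 by edgeR.

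**Figure D3:**
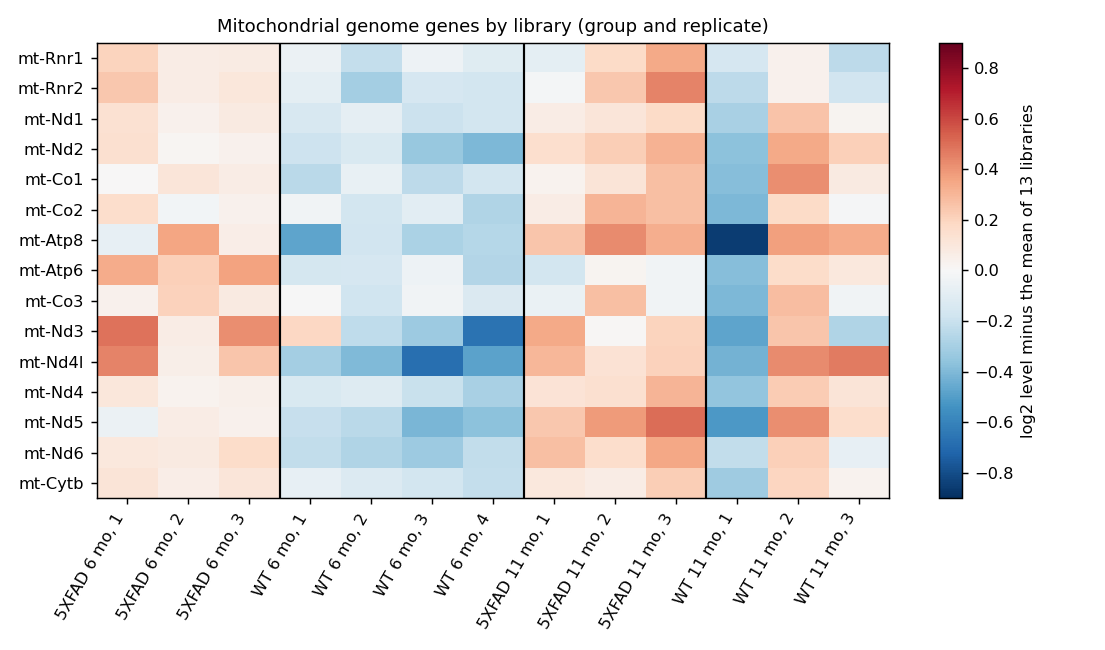
Log2 level of each counted mitochondrial gene in each library minus its mean over 13 libraries (colour; red above, blue below), with 5XFAD left of wild type at each age and genes in genome order. The 4 wild-type libraries at 6 months and replicate 1 of wild type at 11 months are blue in nearly all rows. The 5XFAD libraries at both ages are mostly red. Of wild type at 11 months, replicate 2 is above the mean in 15 genes and replicate 3 in 9.

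Several values moved with the 6-month difference. When only the 7 libraries of that age were fitted, mt-Atp6, mt-Nd6 and mt-Nd4l passed, with adjusted p of 0.0115, 0.0176 and 0.00836 by edgeR, where 1.55% of all genes did. The same 3 genes passed in DESeq2 with all libraries, with adjusted p of 0.00979, 0.00832 and 0.00582. With sex as a covariate no member passed, with 5 at an unadjusted p under 0.05 and all 15 still positive. In male libraries alone, 3 of 5XFAD and 2 of wild type, mt-Nd4l passed with a log2 fold change of 0.84 ± 0.14 and an adjusted p of 0.0457 by edgeR, where 0.553% of all genes passed. The trend on transcript length also moved with the groups. Over nuclear genes, the level relative to the mean of all libraries had a slope of -0.07, -0.05 and -0.09 log2 units per doubling of length in 5XFAD and -0.05, 0.01, -0.03 and -0.03 in wild type. With this trend removed in each library all 15 members stayed positive and none passed, with 4 at an unadjusted p under 0.05 and a smallest adjusted p of 0.406 by edgeR. Without the wild-type library that held choroid plexus markers all 15 were positive and none passed, with 6 at an unadjusted p under 0.05. Endothelial markers summed to 42.8 to 48.99 CPM in 5XFAD and 54.6 to 67.9 CPM in wild type, without overlap. Oligodendrocyte markers had a median of 9839 CPM in 5XFAD and 6359 CPM in wild type, with overlapping ranges. The parts of these cell types, and of microglia and astrocytes, in the difference were not tested.

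At 11 months the genotypes overlapped in each of the 15 genes. No member passed for 5XFAD against wild type, where 4.31% of all genes did, 3.8% higher and 0.503% lower. By edgeR 3 members had an unadjusted p under 0.05, all higher in 5XFAD, against 8.87% of all genes. DESeq2 called 1 member and 6.46% of all genes, and limma on log2(TPM + 1) called 0 members and 4.9% of all genes. Of the 15 members 14 had a positive log2 fold change, from -0.03 to 0.35 with a median of 0.17, where the median over all genes was -0.03. No member was without overlap between the genotypes, while 10.4% of all genes were higher and 8.76% lower without overlap.

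The ribosomal RNAs and mt-Nd6 had the smallest p-values at this age. The gene mt-Rnr2 had 6224, 7460 and 8611 CPM in 5XFAD libraries, against 5360, 6492 and 5605 CPM in wild-type libraries. For mt-Rnr1 the values were 4507, 5409 and 6061 CPM in 5XFAD and 4321, 4931 and 4069 CPM in wild type. In both, the lowest 5XFAD library was below the highest wild-type one. The log2 fold changes were 0.35 ± 0.12 and 0.26 ± 0.11, with adjusted p of 0.149 and 0.278 by edgeR, and DESeq2 gave mt-Rnr2 an adjusted p of 0.0461. The gene mt-Nd6 had 1656, 1533 and 1754 CPM in 5XFAD, against 1181, 1594 and 1309 CPM in wild type. One wild-type library, replicate 2, lay within the 5XFAD range. For this gene the log2 fold change was 0.28 ± 0.11 with an adjusted p of 0.197 by edgeR, and 0.40 ± 0.09 with an adjusted p of 0.0181 without that library. Leaving out any of the other 5 libraries of this age called no member, with smallest adjusted p from 0.0625 to 0.531 by edgeR.

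The other two genes with the smallest adjusted p at 6 months showed no such order at 11 months. The gene mt-Nd4l had 163, 145 and 153 CPM in 5XFAD libraries, against 98.9, 178 and 184 CPM in wild-type libraries. The gene mt-Atp6 had 897, 1026 and 986 CPM in 5XFAD, against 773, 1128 and 1076 CPM in wild type. In both the 5XFAD libraries lay inside the wild-type range, and the log2 fold changes were 0.00 ± 0.19 (95% interval of -0.41 to 0.41) and -0.03 ± 0.13 (-0.30 to 0.24), with adjusted p of 0.995 and 0.936 by edgeR. Neither interval reaches the estimate of its gene at 6 months. Each overlaps the 95% interval at 6 months, which was 0.34 to 1.10 for mt-Nd4l and 0.21 to 0.71 for mt-Atp6. The direct test between the ages is given below. With the copies added, the values at 11 months were 0.17 ± 0.21 for mt-Nd4l and 0.19 ± 0.12 for mt-Atp6.

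In the remaining members the wild-type libraries lay far apart. The gene mt-Co1 had 32532, 34399 and 38361 CPM in 5XFAD and 24338, 42545 and 33612 CPM in wild type. The wild-type range was wider than in any other group for this gene. The complex I genes mt-Nd1, mt-Nd2, mt-Nd4 and mt-Nd5 had log2 fold changes of 0.10 ± 0.12, 0.14 ± 0.15, 0.17 ± 0.13 and 0.31 ± 0.17. For mt-Cytb it was 0.14 ± 0.12, and for mt-Co2, mt-Co3, mt-Atp8 and mt-Nd3 the values were 0.28 ± 0.13, 0.10 ± 0.15, 0.28 ± 0.24 and 0.32 ± 0.21. With the copies added mt-Co1, mt-Co2, mt-Co3, mt-Nd3 and mt-Nd4 had 0.08 ± 0.15, 0.19 ± 0.14, 0.11 ± 0.12, 0.27 ± 0.14 and 0.17 ± 0.13. Wild-type replicate 1 was the lowest library of its group in every member other than mt-Rnr1. Without it only 8 of the 15 log2 fold changes were positive, and mt-Atp8 turned to -0.02.

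**Figure D4:**
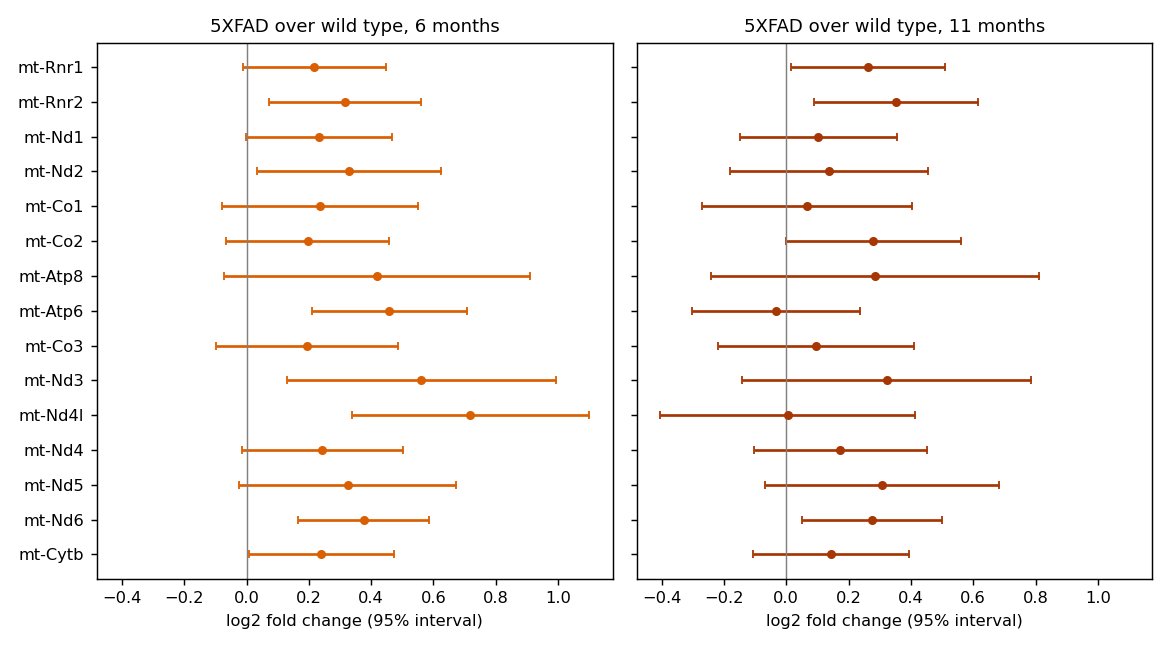
Log2 fold change of 5XFAD over wild type (horizontal axis) for the 15 counted mitochondrial genes at 6 months (left) and 11 months (right), by edgeR; points are estimates and lines 95% intervals without adjustment for the number of genes. All 15 points lie right of 0 at 6 months, from 0.19 to 0.72, and 14 do so at 11 months, from -0.03 to 0.35.

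The difference of the genotype effect between the ages was tested directly. No member passed, while 0.00572% of all genes did, which was 1 gene. By edgeR 2 members had an unadjusted p under 0.05, both negative, against 3.96% of all genes in either direction and 2.56% that were positive, and DESeq2 and limma on log2(TPM + 1) called 0. These were mt-Nd4l, with a difference of -0.71 ± 0.26 log2 units, and mt-Atp6, with -0.49 ± 0.17, both with an adjusted p of 0.9995 by edgeR. With the copies added the differences were -0.33 ± 0.29 for mt-Nd4l and -0.09 ± 0.17 for mt-Atp6, and no member had an unadjusted p under 0.05. A negative sign means a lower estimate of the genotype effect at 11 months. Of the 15 members 12 had a negative difference, with a median of -0.10. This direction rested on single wild-type libraries at 11 months: the median over the 12 heavy strand messenger RNA genes was -0.13 with all libraries, -0.31 without replicate 1 and 0.03 without replicate 2. With sex as a covariate 6 of the 15 members were positive, and the same median was -0.04.

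Age was compared within each genotype next. In 5XFAD, 11 against 6 months, no member passed, while 7.21% of all genes did, 4.84% higher and 2.37% lower. By edgeR 1 member had an unadjusted p under 0.05, against 24.4% of all genes. DESeq2 and limma on log2(TPM + 1) called 0 members, and 12.5% and 4.72% of all genes. The log2 fold changes ran from -0.36 to 0.36 with a median of 0.08, where the median over all genes was -0.001. Without overlap 3 members were higher at 11 months, mt-Nd2, mt-Nd4 and mt-Nd5, and 1 was lower, mt-Atp6. Of all genes, 18.4% were higher and 17.3% lower without overlap, so these counts are near the background.

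The member with the smallest p was mt-Atp6, at 897, 1026 and 986 CPM at 11 months against 1271, 1166 and 1295 CPM at 6 months in 5XFAD. All later libraries lay below all earlier ones. Its log2 fold change was -0.36 ± 0.13 with an adjusted p of 0.0963 by edgeR, and -0.37 ± 0.08 with 0.0129 when only the 5XFAD libraries were fitted. The copy Gm10925 overlapped between the ages, at 12102, 11487 and 13134 CPM at 11 months against 11891, 11781 and 11947 CPM at 6 months. Gene and copy together had 12999, 12512 and 14120 CPM at 11 months against 13161, 12947 and 13243 CPM at 6 months, and the log2 fold change was 0.01 ± 0.12. The share that mt-Atp6 held of the pair was 6.90%, 8.20% and 6.99% at 11 months against 9.65%, 9.01% and 9.78% at 6 months in 5XFAD. In wild type it was 8.43%, 8.12% and 9.17% at 11 months against 8.35%, 8.25%, 8.94% and 7.85% at 6 months. The ages did not overlap in this share in 5XFAD and overlapped in wild type. The longest member, mt-Nd5, had 6278, 6917 and 7519 CPM at 11 months against 5129, 5568 and 5445 CPM at 6 months, a log2 fold change of 0.36 ± 0.17 (adjusted p of 0.223 by edgeR, and 0.0165 with only the 5XFAD libraries, where 15.5% of all genes passed).

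In wild type, 11 against 6 months, no member passed, while 3.73% of all genes did, 2.43% higher and 1.3% lower. By edgeR 4 members had an unadjusted p under 0.05, all higher at 11 months, against 13.1% of all genes. DESeq2 called 1 member and 13.4% of all genes, and limma on log2(TPM + 1) called 0 members and 1.69% of all genes. The log2 fold changes ran from -0.01 to 0.67 with a median of 0.16, and 14 of 15 were positive. Only mt-Nd6 was higher without overlap, at 1181, 1594 and 1309 CPM at 11 months against 1178, 1138, 1096 and 1180 CPM at 6 months, where 9.12% of all genes were and 7.96% were lower. The lowest later library all but equalled the highest earlier one, and the log2 fold change was 0.25 ± 0.10 with an adjusted p of 0.15 by edgeR.

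The gene mt-Nd4l came nearest to the threshold in wild type. It had 98.9, 178 and 184 CPM at 11 months against 107, 100, 82.9 and 95.1 CPM at 6 months. The later libraries lay apart, with replicate 1 inside the earlier range and the other two far above it. Its log2 fold change was 0.67 ± 0.18 with an adjusted p of 0.0521 by edgeR and 0.00622 by DESeq2, and with the copy added it was 0.41 ± 0.20 with 0.224 by edgeR. Without replicate 1 at 11 months, 8 members passed by edgeR: mt-Nd1, mt-Nd2, mt-Nd4, mt-Nd4l, mt-Nd5, mt-Nd6, mt-Co1 and mt-Atp8, with log2 fold changes of 0.29 to 0.91, while 10.7% of all genes passed in that fit. Without replicate 2 of that group only 10 of the 15 were positive and 1 had an unadjusted p under 0.05. The count thus turned on single libraries. Replicate 1 was the only female of its group, and with sex as a covariate no member passed by edgeR, with 3 at an unadjusted p under 0.05.

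**Figure D5:**
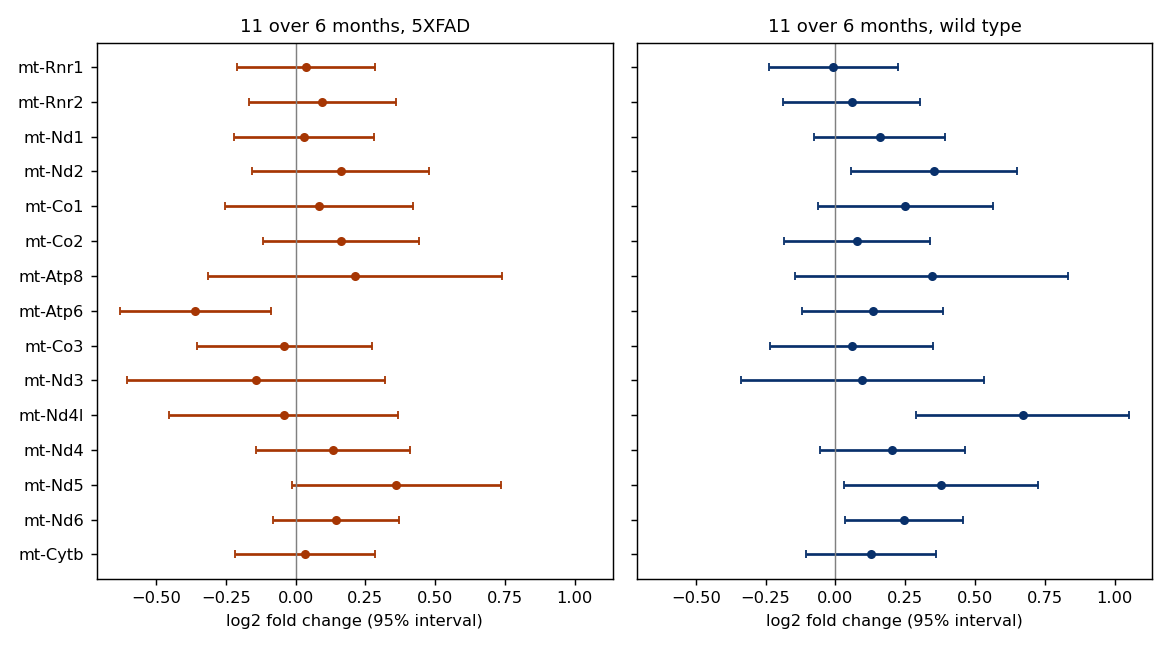
Log2 fold change of 11 over 6 months (horizontal axis) for the 15 counted mitochondrial genes in 5XFAD (left) and wild type (right), by edgeR; points are estimates and lines 95% intervals without adjustment for the number of genes. In 5XFAD the interval of mt-Atp6, at -0.36, lies left of 0, and in wild type the interval of mt-Nd4l, at 0.67, lies right of it.

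Nuclear genes that serve the mitochondrial genome were read in the same fits, as 6 lists with 161 tested genes: 21 for copying mitochondrial DNA, 11 for its transcription, 29 for RNA processing and decay, 23 for charging transfer RNAs, 13 nuclear regulators and 64 nuclear subunits of the respiratory chain. At 6 months none of the 161 passed between genotypes by edgeR, with 6 at an unadjusted p under 0.05 (3.73%, against 9.08% of all genes), while DESeq2 called 2 and limma on log2(TPM + 1) called 0. At 11 months 1 passed by edgeR, with 17 at an unadjusted p under 0.05 (10.6%, against 15.8% of all genes), and 4 passed by DESeq2 and 4 by limma. It was Nfe2l2, the transcription factor of the antioxidant response, at 24.6 ± 0.928 CPM in 5XFAD and 13.5 ± 2.10 CPM in wild type (SD, n = 3 each), a log2 fold change of 0.86 ± 0.15 with an adjusted p of 0.00251 by edgeR.

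The nuclear subunits of the respiratory chain, whose proteins assemble with those made from the mitochondrial genome, stood lower at 11 than at 6 months where they passed. Over the 6 lists 33 genes passed with age in 5XFAD by edgeR, 49 by DESeq2 and 8 by limma, and 18, 55 and 1 did in wild type. In 5XFAD 28 of 64 passed by edgeR, all lower, where 2.37% of all genes were called lower, and the median log2 fold change over the 64 was -0.33. Among them were Cox5a of complex IV, at 86.5 ± 3.65 CPM at 11 months and 130.6 ± 4.56 CPM at 6 months, and Ndufs6 of complex I, at 35.3 ± 1.14 CPM at 11 months and 49.8 ± 1.86 CPM at 6 months (SD, n = 3 each). The log2 fold changes were -0.59 ± 0.10 and -0.50 ± 0.09, with adjusted p of 0.00922 and 0.00946 by edgeR. Next by p came Atp5g3 of complex V, with -0.58 ± 0.10, Ndufb3 of complex I, with -0.46 ± 0.10, and Ndufa4, a subunit linked to complex IV, with -0.46 ± 0.09. In wild type 17 of 64 passed, all lower, where 1.3% of all genes were called lower, with a median over the 64 of -0.32 against 0.02 over all genes. Ndufa4 had the smallest p there, at 163 ± 21.9 CPM at 11 months and 225 ± 9.07 CPM at 6 months, a log2 fold change of -0.47 ± 0.09 and an adjusted p of 0.024 by edgeR. After it came Ndufa6, Cox7a2, Ndufs6 and Atp5k, with -0.41 ± 0.09, -0.34 ± 0.08, -0.36 ± 0.08 and -0.30 ± 0.07. Only 1 of the 64 had a positive log2 fold change in 5XFAD and 0 in wild type, passing or not. At 6 and 11 months none of the 64 passed between genotypes by edgeR, with medians of 0.07 and 0.06.

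These counts depended on the fit. Removing the trend on transcript length left 5 lower in 5XFAD and 0 in wild type, with medians of -0.20 and -0.15. That trend differed by age, at 0.00, 0.05 and 0.01 log2 units per doubling of length in 5XFAD libraries at 11 months against -0.07, -0.05 and -0.09 at 6 months. Leaving out 1 library at a time gave 0 to 12 in 5XFAD. In wild type it gave 52 without replicate 1 at 11 months and 0 to 6 without any other library. With sex as a covariate there were 28 and 5. The libraries of the compared groups alone gave 49 and 0, DESeq2 39 and 46, and limma on log2(TPM + 1) 5 and 0. The share of all genes called also moved with the fit. It was 4.65% in 5XFAD and 0.355% in wild type without the length trend, and 5.05% and 1.97% with sex as a covariate. Leaving out 1 library gave 0.544% to 4.47% in 5XFAD. In wild type it gave 10.7% without replicate 1 at 11 months and 0% to 5.04% without any other library. The compared groups alone gave 15.5% and 0.00592%, DESeq2 12.5% and 13.4%, and limma 4.72% and 1.69%. The 15 tested mitochondrial genes had medians of 0.08 in 5XFAD and 0.16 in wild type. No test was made of the difference between nuclear and mitochondrial genes. Cell type markers also moved with age. In 5XFAD, neuron markers summed to 6013 to 6719 CPM at 11 months and 7036 to 7764 CPM at 6 months. Endothelial markers there summed to 76.3 to 101.5 CPM at 11 months and 42.8 to 48.99 CPM at 6 months. Neither list overlapped between the ages. In wild type, endothelial markers summed to 94.25 to 151.1 CPM at 11 months and 54.6 to 67.9 CPM at 6 months, without overlap. Neuron markers overlapped there, at 5384 to 7421 CPM at 11 months and 6080 to 7900 CPM at 6 months. Astrocyte and microglia markers, given above, were higher at 11 months without overlap in both genotypes. The part of these cell types in the nuclear and mitochondrial values was not tested.

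From the other 5 lists few genes passed with age by edgeR, where 7.21% of all genes did in 5XFAD and 3.73% in wild type. These few calls do not stand out from that background. In 5XFAD at 11 against 6 months these were Mrm3, a methyltransferase of the large mitochondrial ribosomal RNA, with a log2 fold change of -0.42 ± 0.12, Slirp, which binds and stabilises mitochondrial messenger RNA, with -0.43 ± 0.12, Mrpl12, a mitochondrial ribosomal protein that also binds the mitochondrial RNA polymerase, with -0.33 ± 0.07, and Lars2, the mitochondrial leucyl transfer RNA synthetase, with -0.71 ± 0.16. Nfe2l2 was higher, with 0.78 ± 0.15. Adjusted p ranged from 0.0109 to 0.0452 by edgeR over these 5 genes. In wild type Slc25a36, a carrier of pyrimidine nucleotides into mitochondria, was higher at 11 months, with 0.32 ± 0.08 and an adjusted p of 0.0422 by edgeR. With the trend on transcript length removed, the list of Slc25a36 had 0 calls in wild type. In 5XFAD the lists of Mrm3 and Slirp and of Mrpl12 then had 0 calls too. The lists of Lars2 and of Nfe2l2 kept 1 call each. The list of Mrm3 and Slirp also had 0 calls when any single 5XFAD library was left out.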

How the data were processed

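Libraries were made from frontal cortex RNA (600 ng of total RNA per library), per the labels' protocols. Each title ends in mRNAseq. STAR 2.7.1 and RSEM were the tools of the authors, with GRCm38 as the build, per the submitters' processing notes. No source used here names the RSEM version, the annotation or the counting's strand. The deposited expected counts, in which RSEM divides reads that match several genes, were rounded to whole numbers for the tests. The deposited TPM values were used in alternatives only, and the deposited FPKM values not at all. All 55536 identifiers matched GENCODE M21. Titles gave the groups, and replicates were numbered in accession order.

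Genes passing filterByExpr (minimum count 10, minimum total 15) were scaled by TMM and fitted in edgeR 4.0.16 (R 4.3.3) as 1 quasi-likelihood model with 4 group means over 13 libraries. A log2 fold change is followed by its standard error, and a level or share by its SD. The fit was tested on simulated counts with known changes. These were larger than any fitted for the members, so that test does not show how often smaller changes would be called. Nuclear copies were found among annotated transcripts by blastn 2.17.0 (at least 95% identity over at least 100 bases). Alternatives used RLE scaling, totals without the mitochondrial genes, no filter, DESeq2 1.42.0, limma 3.58.1 on log2(TPM + 1), the compared groups alone, a transcript length offset and each library left out. Copies added or left out of totals, sex as a covariate and males alone were chosen after seeing the data.

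The members, gene lists and alternatives were chosen with earlier results of these data known. All mt- genes were described, and of each list the genes past the threshold were named, up to the 5 with the smallest p. The human transgenes were not analysed here.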

Additional observations from a re-analysis of the deposited data

Results flagged for a closer look

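One value stood apart among the 4 wild-type libraries at 6 months, the only group large enough for this check. Mitochondrial ribosomal RNA came to 11.8 counts per 100 mitochondrial messenger RNA counts in replicate 2, against 13.8 to 14.2 in the other libraries of the group. Its gap to the nearest library was 0.852 of the group's range, above Dixon's critical value for 4 libraries. Of 29 values checked in this group 1 stood apart, and chance alone gives about 1 in 20.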

How the results depend on the processing

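No member passed by edgeR in any comparison as fitted. At 6 months 3 passed with DESeq2, 3 with only the compared libraries and 1 with male libraries only. At 11 months 1 passed with DESeq2, and 0 to 1 with a library left out. For age in 5XFAD 2 passed with only the compared libraries. For age in wild type 1 passed with DESeq2, and 0 to 8 with a library left out. The heavy strand median of the age difference in genotype effect ranged from -0.31 to 0.029 with a library left out. For mt-Atp8 at 11 months the log2 fold change ranged from -0.019 to 0.48 with a library left out. For mt-Atp6 with age in 5XFAD it became 0.010 with copies added. Of 1335 gene values under alternatives 76 changed sign, 74 of them under 1 standard error from 0 as fitted. The cause was not tested.

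The mitochondrial share followed its denominator. Against counts outside the mitochondrial genes and copies it averaged 11.7% in 5XFAD and 9.88% in wild type at 6 months, and 12.5% in 5XFAD and 11.4% in wild type at 11 months, where the groups overlapped. With copies added it was 14.5% in 5XFAD and 12.5% in wild type at 6 months, and 15.1% in 5XFAD and 13.9% in wild type at 11 months. Summed TPM gave 17.7% in 5XFAD and 16.2% in wild type at 6 months, and 19.9% in 5XFAD and 19.0% in wild type at 11 months. In limma on TPM the median of all genes shifted to -0.11 at 6 and -0.12 at 11 months, 5XFAD against wild type. The 22 transfer RNA genes have no measurement at any depth. No paired analysis was possible because each title has its own number and replicate numbers follow accession order.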
